A study of Mus musculus with 21 samples.

Results

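Il7r encodes the alpha chain of the interleukin-7 receptor (IL-7Rα, CD127). It was 1 of the 17516 gene symbols counted in single cells of 21 libraries of mouse CD8 T cells, and it was read from its row in every library. It was singled out with its levels in these libraries already known, because it stood among the genes lowest with IL-2v against IL-2, so its levels and their order are given as a description and without a test. Each cell's Il7r count, its share of positive cells, its spread between cells and its relation within libraries to Il2ra, Tcf7 and Bcl2 were examined.

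The cells came from OT1 mice, in which CD8 T cells carry a transgenic receptor for an ovalbumin peptide. A library held cells taken before culture (naive, day 0). All others had been activated on anti-CD3/CD28 beads at day 0. They were then cultured for 3 or 5 days without added cytokine, or for 3, 5 or 10 days in 1 of 3 cytokines: wild-type IL-2, IL-15, or IL-2v, a mutant IL-2 that the treatment labels call IL-2bg. Each cytokine was used at 5 and at 50 IU/mL. The treatment labels of the 50 IU/mL IL-2 and IL-15 libraries name interleukin-3 and interleukin-16, and the library titles, which give IL-2 and IL-15, were followed. The labels describe the libraries as cultured cells, but the extract protocol of all libraries describes a sort of tumour-infiltrating CD44+CD45.1+CD8+ cells. Which of these descriptions applies could not be settled. No library was repeated, so every difference compares libraries and not repeated cultures, and the 95% intervals cover counting error only. How many animals the cells came from is not stated.

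IL-7Rα pairs with the common gamma chain (Il2rg) to bind IL-7, and with Crlf2 to bind TSLP. The receptor signals through JAK1, JAK3 and STAT5, and in T cells it maintains survival, in part through BCL-2. Naive and memory CD8 T cells carry it, and antigen receptor or cytokine signalling lowers its transcription, while FOXO1 and ETS family factors are known to act on its promoter and enhancers.

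Il7r lies on chromosome 15 of the mm10 (GRCm38) assembly, on the minus strand, from position 9505788 to 9530176. The annotation (GENCODE vM21) gives it 4 transcripts, of which 2 are protein coding, and 8 exons in the transcript Il7r-201. Its neighbours are Capsl and Spef2, and 0 annotated genes overlap it, so its reads are not shared with an antisense partner in that annotation. The short stretch below, from chr15:9529907-9529936, lies upstream of the RefSeq start (bases -60 to -31, RefSeq, build GRCm38.p6). The annotated span of Il7r, up to position 9530176, starts farther upstream and takes in this stretch. The stretch overlaps 0 annotated exons of Il7r. It is shown because it holds a match to the core motif of the ETS family, whose members Ets1 and Gabpa are followed below. The capitals mark that match, AGGAAGT read on the opposite strand, at bases -49 to -43.
Il7r: cttttgctcagACTTCCTgtttctggcact
Of 32851 promoter windows of the same length (250 bases before the start to 50 after it, both strands searched), 9.35% hold AGGAAGT. The forkhead letters GTAAACA are in 3.65% of the windows and the TCF letters ATCAAAG in 3.73%, and neither is in the Il7r window. The RUNX letters TGTGGT are in 16.8% and match once in Il7r, at base 3 after the start. These are matches of letters, not binding sites.

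The libraries held 3250 to 7105 cells and 10589950 to 32648496 UMIs (unique molecular identifiers, 1 per counted transcript molecule), with a median of 3016 to 5065 UMIs per cell. Cd3d was found in 93.0% to 99.5% of cells and Cd8b1 in 54.5% to 92.0%, against at most 1.49% for Cd4. Other cells were those with at least 2 B cell, myeloid, erythroid or innate markers of 1 lineage, or Cd4 without Cd8a and Cd8b1. They made up at most 0.936% of a library. Some single markers were more common. Cst3 (myeloid) was in 20.7% to 41.3% of cells and Cd79b (B cell) in at most 7.45%. Klrb1c (innate) was in 0% to 13.0%, the highest in high-dose IL-2v on day 10. Trdc, a gamma delta T cell receptor transcript, was found in 17.0% to 42.2% of cells in all libraries, and Tcrg-C1 in 0.202% to 11.9%. Pairs of libraries shared at most 19 cell barcodes, which was at most 0.340% of the smaller library. Cycling cells, those with a Mki67 or Top2a UMI, made up 3.01% to 86.9% of a library.

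Il7r spanned a 351-fold range of levels. It was highest after 10 days in 5 IU/mL IL-15, at 991 CPM (Il7r UMIs per 1000000 UMIs of the library, 95% interval 978 to 1003), and lowest after 10 days in 50 IU/mL IL-2v, at 2.82 CPM (2.23 to 3.53, from 77 Il7r UMIs). Naive cells stood in between, at 446 CPM (437 to 456). Activation without cytokine went with a 3.25-fold lower level on day 3, at 137 CPM (132 to 142), and a 5.10-fold rebound by day 5, to 700 CPM (690 to 710). The rebounded library was above the naive one. Cycling cells made up 3.01% of the naive library, 60.0% on day 3 and 13.8% on day 5. In non-cycling cells alone the log2 differences were -1.39 against -1.69 in all cells for the first step, and 2.08 against 2.34 for the second.

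Cultures with cytokine lay close together on day 3 and far apart on day 10. On day 3, IL-2 gave 155 CPM at 5 IU/mL (150 to 161) and 230 CPM at 50 IU/mL (223 to 238). IL-2v gave 86.7 CPM at 5 IU/mL (82.7 to 90.8) and 115 CPM at 50 IU/mL (111 to 120) on that day. IL-15 gave 132 CPM at 5 IU/mL (127 to 136) and 102 CPM at 50 IU/mL (97.8 to 106). The 6 cultures thus stood within 3-fold of one another, with high-dose IL-2 on top.

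By day 5 Il7r was higher than on day 3 in 4 of the 6 cultures, most in low-dose IL-2 (3.6-fold) and low-dose IL-15 (2.89-fold), and lower in high-dose IL-2 and high-dose IL-2v. Low-dose IL-2 reached 560 CPM (549 to 570) and low-dose IL-15 380 CPM (373 to 387). High-dose IL-2 was at 159 CPM (152 to 167) and high-dose IL-15 at 178 CPM (173 to 184). IL-2v was at 96.3 CPM at 5 IU/mL (91.8 to 101) and at 51.5 CPM at 50 IU/mL (48.5 to 54.7), the lowest levels of that day. All 6 were below the day 5 library without cytokine.

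On day 10 every culture but low-dose IL-15 was below its day 5 level. Low-dose IL-2 had 148 CPM (144 to 152) and high-dose IL-2 23.1 CPM (21.4 to 25.01). High-dose IL-15 had 96.6 CPM (93.2 to 100.1), 10.3-fold below low-dose IL-15. Low-dose IL-2v had 26.95 CPM (25.2 to 28.8). Low-dose IL-15 ended 2.22-fold above the naive library (2.16 to 2.28).

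**Figure D1:**
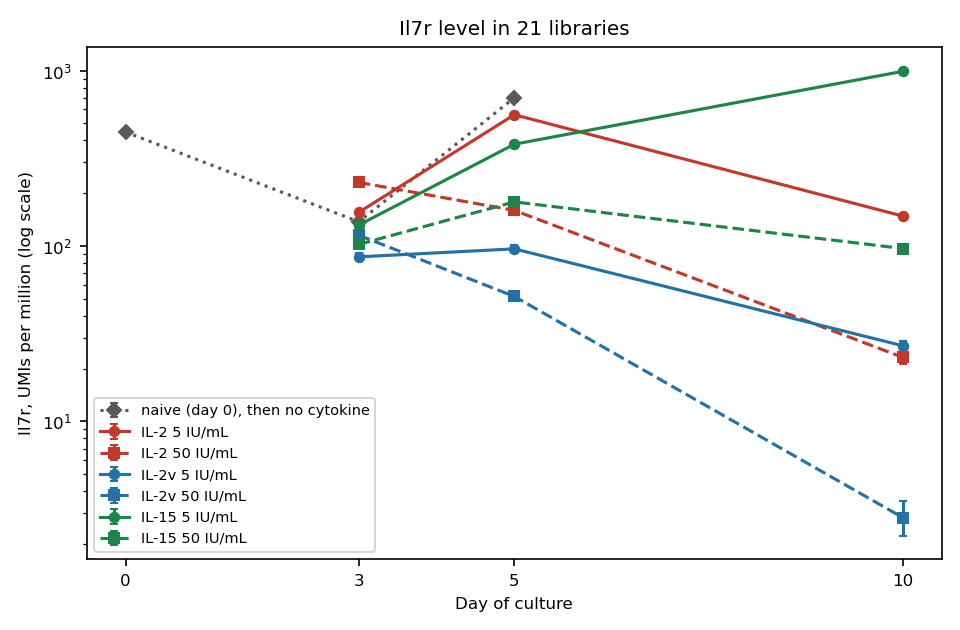
Il7r in CPM (log axis) against the day of culture, 1 point per library, with exact 95% Poisson intervals as bars (most are smaller than the symbol). Low-dose IL-15 climbs to 991 CPM on day 10 while the other 5 cytokine cultures fall from day 5 to day 10, high-dose IL-2v to 2.82 CPM.

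Most neighbours in the order of levels were farther apart than counting error. The exceptions were 4 of the 20 neighbouring pairs, whose ratio intervals held 1. High-dose IL-2 on day 5 and low-dose IL-2 on day 3 differed by a ratio of 1.03 (0.965 to 1.09). Cells without cytokine and cells with low-dose IL-15, both on day 3, had a ratio of 1.04 (0.991 to 1.10). High-dose IL-15 on day 3 and on day 10 had a ratio of 1.06 (0.999 to 1.12). High-dose IL-15 on day 10 and low-dose IL-2v on day 5 had a ratio of 1.004 (0.947 to 1.06). Differences between repeated cultures were not measured, and are not in these intervals.

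The sums above can also be read cell by cell. For this, each cell was thinned to 2000 UMIs at random, which left out 57 to 393 shallower cells per library. A UMI of Il7r was then found in 0.627% to 76.2% of cells (1.39% to 88.2% before thinning). The 76.2% belonged to low-dose IL-15 on day 10, where 33.3% of cells had 3 or more Il7r UMIs and positive cells held 2.70 UMIs on average. In naive cells 45.5% were positive and 11.2% had 3 or more. In high-dose IL-2v on day 10 no thinned cell had more than 1. No cell type that lacks Il7r was present in number, so the share from free RNA was not measured. The lowest share in any library was that 1.39%, and whether its UMIs came from cells that express Il7r was not tested.

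**Figure D2:**
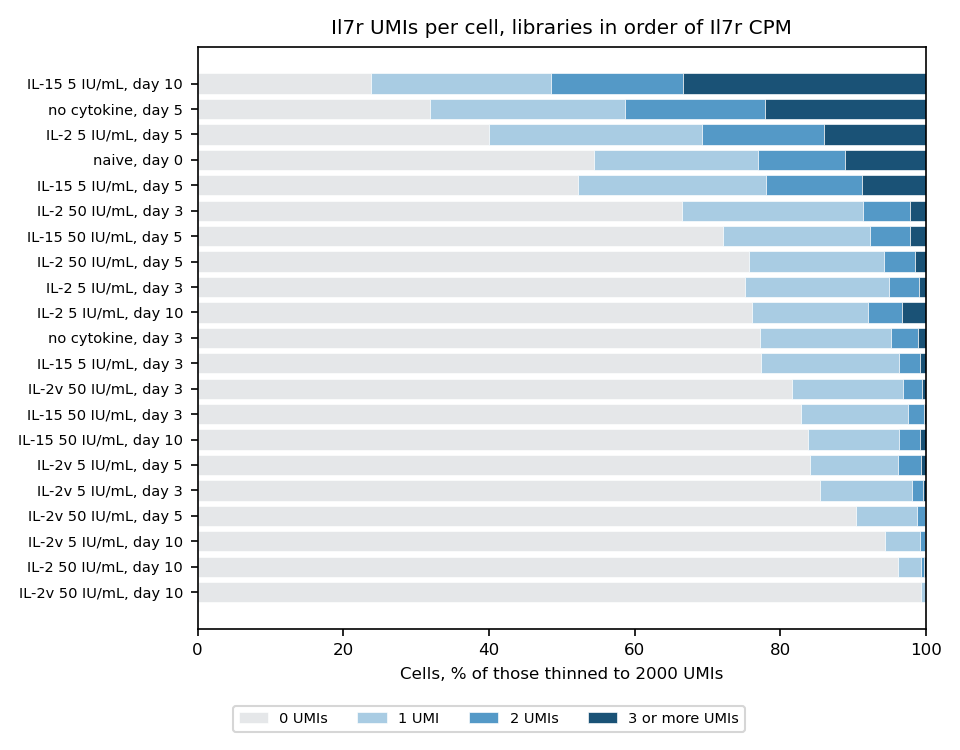
Share of cells (% of cells thinned to 2000 UMIs) with 0, 1, 2 and 3 or more Il7r UMIs in each library, the libraries ordered from the highest to the lowest Il7r CPM. The share with 3 or more UMIs runs from 33.3% in low-dose IL-15 on day 10 to none in the bottom library, and naive cells (11.2%) and low-dose IL-2 on day 10 (3.25%) have more such cells than neighbours of a like share of positive cells.

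Il7r was unevenly spread between cells of 1 library. The Fano factor (variance over mean of the thinned UMIs, near 1 for pure sampling) was 0.994 to 1.996, while the median gene with at least 20 CPM had 1.02 to 1.04. In the libraries where it reached 20 CPM, Il7r stood at the 89.5th to 99.8th percentile of such genes. These genes were not matched to it in level. The highest Fano factors were those of naive cells (1.996), low-dose IL-15 on day 10 (1.85) and low-dose IL-2 on day 10 (1.81). At a given relative spread this factor rises with the mean, so its order follows the Il7r level in part. The spread beyond counting (standard deviation over mean) was 0.644 in low-dose IL-15 on day 10. It was 1.05 in naive cells, 1.48 in low-dose IL-2 on day 10 and 3.63 in high-dose IL-2 on day 10. In high-dose IL-2 on day 10, only 3.90% of cells were positive, yet the Fano factor was 1.67 and up to 5 UMIs were found in a thinned cell. The positive cells there were few but not uniformly at 1 UMI.

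In the 3 libraries with the highest Fano factors, cells rich in Il7r were set against cells without it, gene by gene. A difference between these libraries was not tested. The genes named were picked from the same cells after their values were seen (the 5 highest and 5 lowest of 5155 to 5459 genes in cells with 3 or more Il7r UMIs against cells with 0), and are a description. In low-dose IL-2 on day 10, 198 of 6083 thinned cells (3.25%) had 3 or more Il7r UMIs and held 31.8% of the Il7r UMIs. Itga4, an integrin alpha chain, was at 96.0 CPM in them and 24.0 CPM in the 4629 cells without. Rflnb (90.9 against 22.7 CPM), Sidt1 (78.3 against 27.5 CPM) and Pde2a (90.9 against 36.4 CPM) were also higher. The lowest were the cell division genes Stmn1 (20.2 against 179 CPM), Cenpf, Pclaf and Top2a, and the granzyme gene Gzmc.

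The same cells can be read through the homing and memory genes. Tcf7, the transcription factor TCF-1 of naive and memory T cells, was found in 48.5% of cells with 3 or more Il7r UMIs, 41.1% of those with 1 or 2, and 25.3% of those with 0. Klf2 was found in 39.4%, 36.1% and 23.4%, and S1pr1, the receptor for exit from lymph nodes, in 28.3%, 22.5% and 14.4%. Ccr7, a lymph node homing receptor, was found in 15.7%, 13.4% and 8.17%. The granzyme genes ran the other way. Gzmb was found in 25.8%, 41.9% and 59.1% of cells, and Gzma in 8.59%, 13.1% and 27.2%. Id2, a factor of effector cells, was in 50.5%, 56.5% and 70.0%. Bcl2 did not follow this order, at 86.9%, 90.4% and 88.2%.

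**Figure D3:**
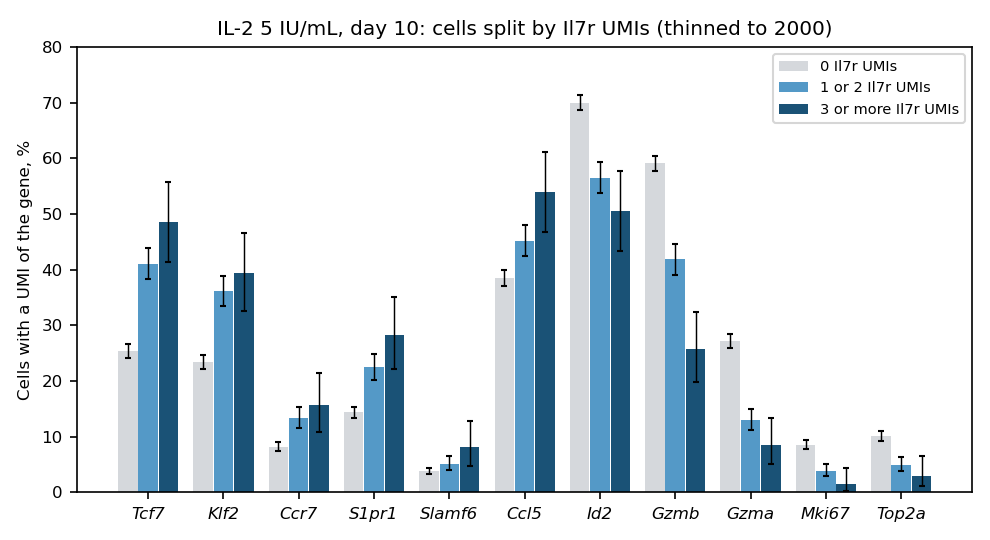
Cells with a UMI of 11 genes (%), in the low-dose IL-2 library of day 10, for cells with 0 (grey), 1 or 2 (light blue) and 3 or more (dark blue) Il7r UMIs after thinning, with exact 95% binomial intervals. Tcf7, Klf2, Ccr7, S1pr1, Slamf6 and Ccl5 step up with the Il7r count, and Id2, Gzmb, Gzma, Mki67 and Top2a step down.

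In naive cells, the cells with 3 or more Il7r UMIs (500 of 4471, 11.2%, holding 48.7% of the Il7r UMIs) were higher than cells without in Il18r1 (124 against 43.7 CPM), Maf (67.0 against 23.0 CPM), Cd44, an activation and memory marker (51.0 against 17.7 CPM), Pim1 and Ifngr1. Id3 was lower (58.0 against 144 CPM), as was Hist1h2ap, a histone gene of dividing cells (11 against 93.6 CPM). Tcf7 was found in 62.0% of these cells against 56.6%, and Bcl2 in 35.2% against 26.1%. The CD8 transcripts were less often found in these cells, Cd8a in 44.4% against 58.3% and Cd8b1 in 70.2% against 80.05%. Ccl5 was found in 18% against 8.09%, and the chemokine receptor genes Cxcr6 in 14.4% against 7.22% and Ccr2 in 6.4% against 1.23%. The part of these cells in the Il7r spread was not tested. Ccr7 and S1pr1 differed little, at 39.2% and 54.6% of cells against 35.9% and 56.2%.

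A small set of naive cells had UMIs of Tmem176a, Tmem176b or Cd163l1, 3 genes chosen after their values were seen. They were 11% of cells with 3 or more Il7r UMIs (8.39% to 14.1%), 3.78% of those with 1 or 2 and 2.18% of those with 0. Il7r was at 1003 CPM in these 166 cells (898 to 1117) and at 429 CPM in the other 4305 (415 to 443), against 450 CPM in all thinned naive cells. The Fano factor was 1.91 without them and 1.996 with them. A Trdc or Tcrg-C1 UMI was found in 48.8% of them (41.0% to 56.7%) and in 25.5% of the others.

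In low-dose IL-15 on day 10, where 1796 of 5394 cells had 3 or more Il7r UMIs and held 70.3% of the total, Tent5c, a poly(A) polymerase gene, was at 82.4 CPM in those cells against 38.9 CPM in the 1284 without. S100a6 (156 against 257 CPM), Lgals1 and Id2 (106 against 170 CPM) were lower. Bcl2 was found in 47.7% of the first cells and 58.3% of the second. The genes described for low-dose IL-2 were also read here, in cells with 0, 1 or 2, and 3 or more Il7r UMIs. Tcf7 was found in 45.0%, 50.9% and 51.7% of cells, Klf2 in 69.6%, 77.0% and 82.6%, S1pr1 in 45.3%, 53.5% and 60.0%, and Ccr7 in 40.9%, 44.5% and 45.8%. Gzmb (0.779%, 0.389% and 0.111%) and Gzma (0.701%, 0.432% and 0.111%) ran the other way, from low shares. Id3, a memory marker, was found in 18.6%, 16.1% and 14.5% of cells and Eomes in 2.34%, 2.07% and 2.17%, so the memory markers did not all follow Tcf7.

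IL-2v went with less Il7r than IL-2 in all 6 pairs of equal day and dose, the contrast on which Il7r was chosen. On day 3 IL-2 had 1.79-fold more at 5 IU/mL and 2.001-fold more at 50 IU/mL. On day 5 the folds were 5.82 and 3.09, and on day 10 they were 5.49 and 8.20. Over the 6 pairs the median log2 difference was -2.01, from -2.66 to -0.84, on a log2(CPM + 1) scale. Of 5839 genes tested, 1.32% were called, that is, moved the same way in all 6 pairs with a median of at least 2-fold (1 on the log2 scale). Il7r was called, with rank 3 from the lowest, and nothing is read from this, since the contrast chose it.

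In thinned cells, the share of positive cells under IL-2v was 0.584, 0.552, 0.264, 0.393, 0.235 and 0.161 times that under IL-2 (days 3, 5 and 10, the lower dose first). The UMIs per positive cell were 0.681 to 0.923 times as many. A positive cell holds at least 1 UMI and most held little more, so these values do not tell fewer cells with Il7r from less Il7r in each cell.

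The same contrast can be split by class of cell, in the same libraries, which describes it and does not support it further. Among cells without a Mki67 or Top2a UMI, IL-2 exceeded IL-2v in 6 of 6 pairs, by a median of 3.91-fold (1.87 to 8.51). Among cycling cells the median was 3.78-fold (1.79 to 6.78), again in 6 of 6. Cells with an Il2ra UMI gave 4.15-fold (1.65 to 9.81) and cells without gave 4.27-fold (1.93 to 6.51). Cells with a Tcf7 UMI gave 2.76-fold over the 5 pairs with enough such cells (1.62 to 6.33), and cells without gave 3.89-fold. The cycling share itself differed between the members of a pair. In the low-dose pairs it was 39.8% with IL-2v and 18.7% with IL-2 on day 5, and 40.6% and 18.2% on day 10. In the high-dose pair of day 3 it was 86.9% with IL-2v and 73.8% with IL-2.

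**Figure D4:**
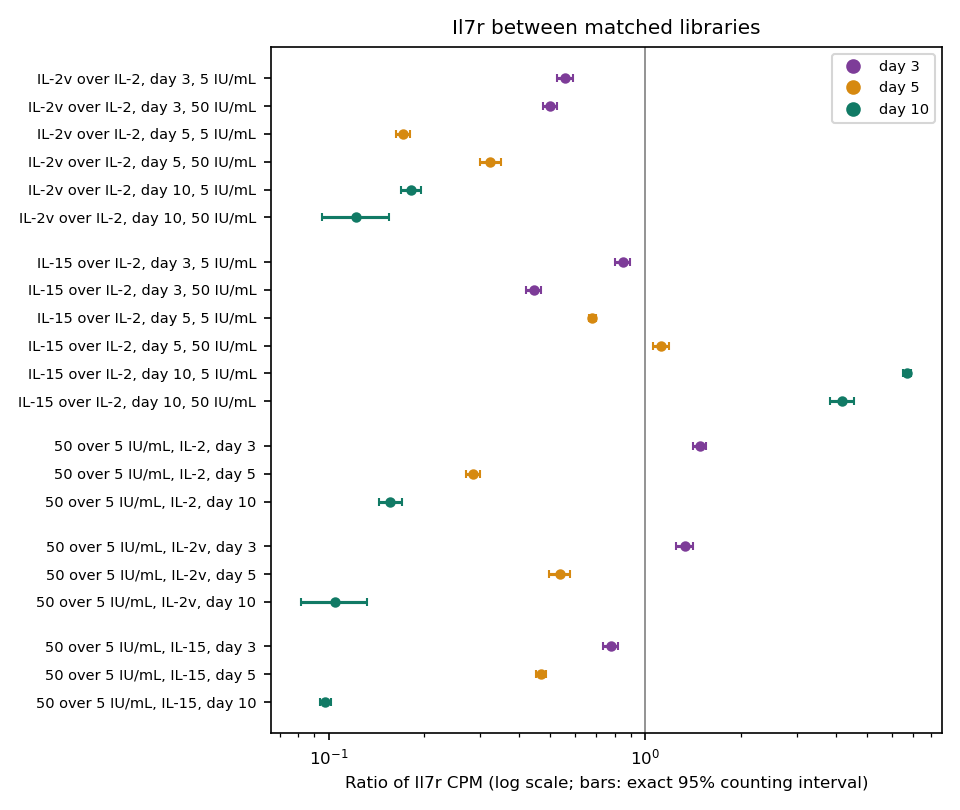
Ratio of Il7r CPM between libraries matched for day and dose or for cytokine and day (log axis), with exact 95% counting intervals as bars. All 6 IL-2v over IL-2 ratios lie below 1, the IL-15 over IL-2 ratios go from 0.846 on day 3 to 6.70 on day 10 at 5 IU/mL and from 0.443 to 4.18 at 50 IU/mL, and the dose ratios of IL-2 and IL-2v are above 1 on day 3 alone.

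IL-15 changed sides against IL-2 with time. On day 3 IL-15 had less, 1.18-fold at 5 IU/mL and 2.26-fold at 50 IU/mL. On day 5 it was 1.47-fold lower at 5 IU/mL and 1.12-fold higher at 50 IU/mL. On day 10 it was 6.70-fold higher at 5 IU/mL (6.49 to 6.92) and 4.18-fold higher at 50 IU/mL (3.83 to 4.56). In thinned cells of day 10 the share of positive cells was 3.19 times as high at 5 IU/mL and 4.14 times at 50 IU/mL. The median over the 6 pairs was -0.04 (-0.02 in non-cycling cells) and Il7r was not called, beside 2.19% of 5718 genes that were.

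Against IL-15, IL-2v was lower in 5 of 6 pairs. High dose on day 3 was the exception, where IL-2v had 1.13-fold more. On day 10 the gap was 36.7-fold at 5 IU/mL and 34.3-fold at 50 IU/mL (IL-15 higher). The median was -1.87 (-1.74 in non-cycling cells), the second lowest of 5810 genes tested. The IL-2v libraries are those of the contrast that chose Il7r, so nothing is read from this rank. Of the genes tested, 3.06% were called, and Il7r was not, for its 1 pair of opposite sign. These contrasts use the same IL-2v, IL-15 and IL-2 libraries, so the 3 sets of differences are not independent.

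The dose step turned with time for IL-2 and IL-2v. On day 3 the higher dose of IL-2 had 1.48-fold more Il7r and that of IL-2v 1.33-fold more. On day 5 the higher dose had less, 3.51-fold with IL-2 and 1.87-fold with IL-2v. On day 10 it had 6.39-fold less with IL-2 and 9.55-fold less with IL-2v. With IL-15 the higher dose had less on every day, by 1.29-fold, 2.13-fold and 10.3-fold. Il7r was called lower with dose for IL-15 (median -1.09), beside 1.05% of genes called, and was not called for IL-2 (median -1.80) beside 6.99% or for IL-2v (median -0.89) beside 3.01%. Without day 10 the IL-15 median was -0.73, which ends its call. In non-cycling cells the 3 medians were -1.09 for IL-15, -1.68 for IL-2 and -0.87 for IL-2v.

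Set against cells kept without cytokine for as long, a library that all 6 cultures of a day share, the signs were mixed on day 3 and all negative on day 5. On day 3 the log2 difference was 0.18 with low-dose and 0.74 with high-dose IL-2. For IL-2v it was -0.66 at the lower and -0.25 at the higher dose. For IL-15 it was -0.06 and -0.42. On day 5 the 2 values for IL-2 were -0.32 and -2.13. Those for IL-2v were -2.85 and -3.74, and those for IL-15 were -0.88 and -1.97. The sign of low-dose IL-15 on day 3 changed under 1 of 7 alternative settings, with at most 5% mitochondrial UMIs. On both days IL-2v had the lowest value of the 3 cytokines at 5 IU/mL, and at 50 IU/mL on day 5. With a shared library this order restates the contrasts between cytokines. IL-2v against IL-2 is the contrast that chose Il7r, so nothing further is read from the order.

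Between day 3 and day 10, Il7r was 7.53-fold higher in low-dose IL-15 and 40.8-fold lower in high-dose IL-2v. High-dose IL-2 was 9.96-fold lower and low-dose IL-2v 3.22-fold lower. Low-dose IL-2 and high-dose IL-15 ended near their day 3 level, at ratios of 0.951 (0.907 to 0.997) and 0.947 (0.896 to 1.001), although both had been higher on day 5. The sign of these last 2 differences changed under 3 of 7 alternative settings each. The median over the 6 cultures was -0.86, and -0.78 in non-cycling cells. Il7r was not called, beside 8.85% of 5977 genes. For the activation step from naive to day 3 it was called lower, beside 19.4% of 6171 genes, and for the step from day 3 to day 5 without cytokine it was called higher, beside 13.1% of 5785.

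Other genes of the receptor's pathway, its known regulators and memory and effector markers were read from lists. In IL-2v against IL-2, where 1.32% of all genes were called, Il2rg was at a mean of 195 CPM in both (0.01). Foxo1 was at 80.3 and 94.5 CPM (-0.27), the memory markers, Tcf7 among them, had a list median of -0.24, and the median of all genes was 0.06. The FOXO1 targets (4 tested, median 0.04) had 1 called, in the direction opposite to Il7r. The memory markers (8 tested) and the effector markers (5 tested, median -0.11) had 0 called.

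The ligand genes Il7 and Tslp were at most at 0.136 and 0.139 CPM in any library, under the 20 CPM asked of a tested gene. Factors known to act on Il7r (6 tested) had a median of -0.24, with Ets1 at a mean of 210 CPM under IL-2v and 248 CPM under IL-2, and Gabpa at 32.1 and 28.7 CPM. The kinases and STATs (9 tested) had a median of -0.16, the feedback genes (3 tested) of 0.07, the survival and growth targets (8 tested) of -0.04 and the other common gamma chain receptors (4 tested) of 0.07, with 0 called in these 5 lists, from which nothing is read at a share of 1.32% over all genes. Among the receptors, Il2ra (the IL-2 receptor alpha chain) had a median of -0.27 and pairs from -1.35 to 0.68.

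With the dose of IL-2 and IL-2v, several homing, memory and effector genes differed in the same direction on all 3 days, and Il7r did not. For IL-2, where 6.99% of all genes were called, the FOXO1 targets Klf2 (from a mean of 262 to 58.0 CPM) and S1pr1 (from 188 to 37.7 CPM) were called lower, as were 5 of 8 memory markers (Tcf7 from 220 to 40.8 CPM) and effector markers were called higher in 4 of 6 (Gzmb with a median of 2.63). Il2ra was higher (from 149 to 500 CPM). For IL-2v, beside 3.01% of all genes, 3 of 4 FOXO1 targets and 4 of 8 memory markers were lower and 5 of 5 effector markers higher. For IL-15, beside 1.05% of all genes, 0 of 4 FOXO1 targets were called, and 1 memory marker was lower (Id3, median -1.34) and 1 higher (Eomes, 1.02), while Il7r itself was called. Effector markers were called higher in 2 of 3 tested (list median 1.77), and so was Il2ra, 1 of the common gamma chain receptors (1.11). The day 3 libraries of IL-2 show the difference between Il7r and these genes. Klf2 was at 175 CPM at 5 IU/mL and 66.3 CPM at 50 IU/mL, Tcf7 at 188 and 50.5 CPM, and Il7r at 155 and 230 CPM.

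Several of these genes were, like Il7r, lower in cells activated without cytokine than in naive cells. From naive to day 3 without cytokine, Klf2 went from 883 to 277 CPM, S1pr1 from 448 to 165 CPM and Lef1 from 467 to 217 CPM, and 2 of 4 FOXO1 targets were called lower, beside 19.4% of all genes called. Il2ra went from 5.63 to 149 CPM and Bcl2 from 191 to 84.0 CPM. From day 3 to day 5, 0 of 4 FOXO1 targets were called, beside 13.1% of all genes, while Foxp1 (from 241 to 514 CPM), Id3 (from 74.7 to 224 CPM) and Il2rg (from 190 to 386 CPM) were called higher and Gzmb lower (from 642 to 47.2 CPM). For IL-15 against IL-2, with 2.19% of all genes called, Klf2 was called higher and Il2ra, Gzmb and Tnfrsf9 lower. For IL-2v against IL-15, with 3.06% of all genes called, 5 of 8 memory markers, Tcf7 among them (a mean of 96.9 against 230 CPM), were called lower.

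Over the 21 libraries, the genes whose levels ordered most like Il7r were Nfkbia, an inhibitor of NF-κB (Spearman rho 0.88), Syf2, a splicing factor (0.88), Ltb, the lymphotoxin beta subunit (0.85), Gigyf1 (0.85) and Thada (0.84). These are the 5 highest of 5494 genes. The 5 lowest were Ss18l2 (-0.83), Yif1a (-0.81), Capzb (-0.80), Psma4 (-0.78) and Stt3a (-0.78). The 5th and 95th percentiles over all genes were -0.58 and 0.64. Libraries share the same days and cytokines, so these values describe the pattern and carry no p-value. Ltb ran from 199 CPM in high-dose IL-2 on day 10 to 1820 CPM without cytokine on day 5. Nfkbia ran from 35.8 to 233 CPM between the same 2 libraries.

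Among listed genes Bach2, which keeps T cells from terminal differentiation, had rho 0.79, Foxp1 0.77, Id3 0.76, Tcf7 0.73, Ets1 0.72 and Foxo1 0.65. Il2rb, the beta chain shared by the IL-2 and IL-15 receptors, had -0.70, Gzmb -0.61, Il2ra -0.44 and Bcl2 -0.39. The memory marker Eomes had -0.59, so the memory markers did not all order with Il7r. Bcl2 ranged from 60.8 CPM without cytokine on day 5, where Il7r was second highest, to 1173 CPM in low-dose IL-2 on day 10.

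Within a library the relation of Il7r to Il2ra was weak and depended on the culture. Of 20 libraries with at least 50 cells in each class, cells with an Il2ra UMI had more Il7r in 16, with a median ratio of 1.12, 9 intervals above 1 and 1 below. These within-library intervals, here and below, treat the UMIs of 1 cell as independent. Where the Fano factor was above 1 they are too narrow, and the numbers of intervals above or below 1 are too high. The 4 highest ratios came from high-dose cultures. It was 1.70 (1.30 to 2.21) in high-dose IL-2 on day 10, where 5.48% of cells with Il2ra and 2.89% of cells without had an Il7r UMI. It was 1.42 (1.25 to 1.62) in high-dose IL-2 and 1.41 (1.23 to 1.62) in high-dose IL-2v on day 3, and 1.33 (1.16 to 1.51) in high-dose IL-2 on day 5. Low-dose IL-2 on day 10 had the lowest, 0.854 (0.760 to 0.957). Across libraries the levels of the 2 genes had rho -0.44, while within 16 of 20 libraries the cells with Il2ra had more Il7r.

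Cells with a Tcf7 UMI had more Il7r in 15 of 20 libraries, with a median ratio of 1.15, 11 intervals above 1 and 1 below. Low-dose IL-2 on day 10 again stood out, at 1.86 (1.71 to 2.03), with Il7r in 34.3% of cells with Tcf7 and 19.6% of cells without. High-dose IL-15 on day 10 had 1.44 (1.28 to 1.61) and low-dose IL-2v on day 10 had 1.42 (1.12 to 1.79). High-dose IL-2 on day 3 had a ratio below 1, at 0.825 (0.679 to 0.995), with a Fano factor of 1.20. No turn of sign is read from it, since this interval ends near 1 and is too narrow. Low-dose IL-2 on day 10 was also split by both genes. Il7r was found in 35.2% (32.8% to 37.7%) of the 1503 cells with Tcf7 and no Il2ra. It was found in 29.4% (24.2% to 35.1%) of the 282 with both, and these intervals overlap. Among cells without Tcf7 the share was 19.5% with and 19.6% without Il2ra.

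Bcl2 showed no common relation. The ratio was above 1 in 13 of 21 libraries, with a median of 1.04, 2 intervals above 1 and 2 below. Naive cells with Bcl2 had more Il7r (1.24, 1.16 to 1.32), and low-dose IL-15 cells on day 10 had less (0.840, 0.809 to 0.872). The correlation between single cells was small for all 3 genes, with medians over libraries of 0.02 for Il2ra, 0.03 for Tcf7 and 0.01 for Bcl2 (Pearson, thinned UMIs), and is no finding in counts this sparse.

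**Figure D5:**
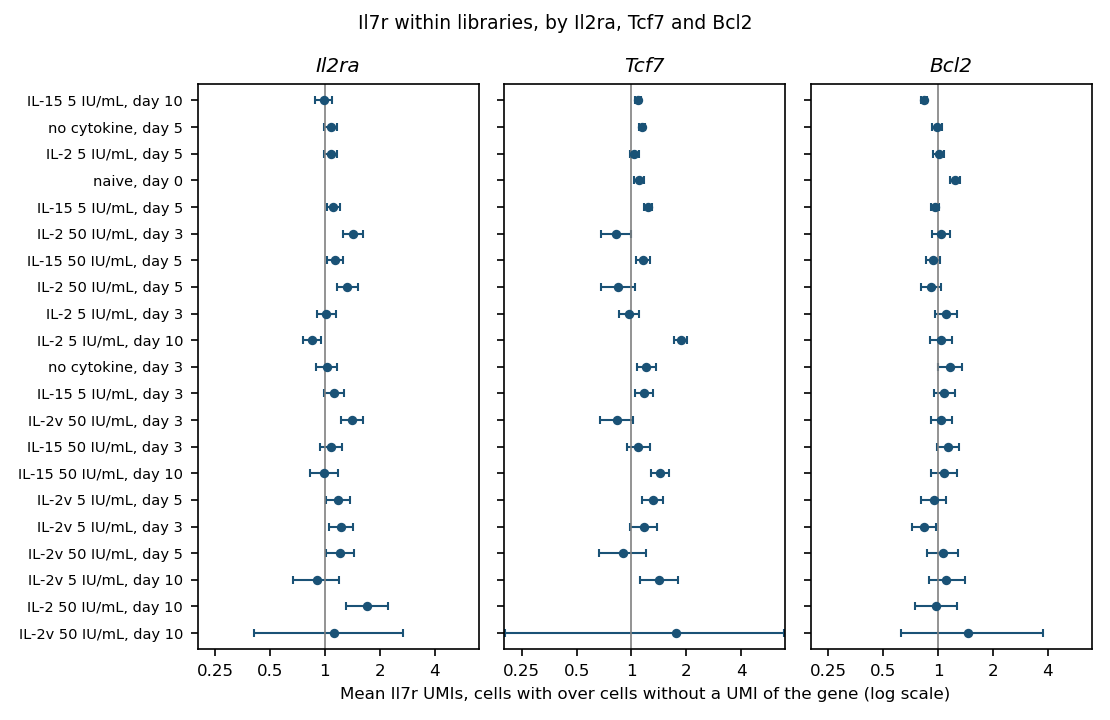
Ratio of the mean Il7r UMIs in cells with over cells without a UMI of Il2ra, Tcf7 and Bcl2 (log axis), 1 point per library in order of Il7r CPM, with exact 95% counting intervals as bars, after thinning to 2000 UMIs. Low-dose IL-2 on day 10 has the highest Tcf7 ratio (1.86) and the lowest Il2ra ratio (0.854), and the bottom library has wide intervals from its few Il7r UMIs.

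Cycling cells had less Il7r at equal depth. In 19 of 21 thinned libraries they were below the others, with a median ratio of 0.769 and 16 intervals below 1, the lowest in low-dose IL-2 on day 10 (0.502, 0.421 to 0.595). Without thinning the median ratio was 1.02 and cycling cells were higher in 13 of 21. Cells with a UMI of Ccl5, a chemokine gene of memory and effector CD8 T cells added after its values were seen, were higher in Il7r in 20 of 21 libraries, with a median ratio of 1.22.

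Across all genes, Il7r-positive cells were compared with negative cells in the 19 libraries with at least 200 cells of each. Of 5512 genes, 71 had the same sign in every library, 23 higher and 48 lower, and 1 reached a median of 2-fold. Among these 71 genes, the 5 highest were Tent5a (median log2 ratio 0.43), Slamf6, a receptor of memory and stem-like T cells (0.39), Icos, a costimulatory receptor (0.33), Neurl3 (0.27) and the long noncoding RNA Neat1 (0.25). The 3 lowest of the 71 were the kinetochore genes Knl1 (-1.08), Cenpe (-0.77) and Spc25 (-0.75). Of the listed genes, Slamf6 and Foxp1 (0.18) were higher in all 19. The memory markers Id3 (-0.25) and Eomes (-0.23) were each higher in only 4 of the 19.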

How the data were processed

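The authors deposited 1 table of raw counts of UMIs (whole numbers) per library, genes by cells. The submitters' processing notes name Cell Ranger, Seurat 4.0.1 and 3.0.2 and the mm10 build, and their roles are not stated. The gene, its lists and the comparisons were chosen with earlier results of these data known. A cell was kept with 1000 UMIs or more, 500 genes or more and no more than 10% mitochondrial UMIs, which kept 106456 cells and removed 2. No doublet caller was run, and 1 alternative leaves out cells above 2 times the library's median UMIs. Counts were summed to CPM. Differences are on a log2(CPM + 1) scale, over genes with at least 20 CPM in either arm. Intervals are exact Poisson, Clopper-Pearson or conditional binomial, at 95%. With 1 library per condition no test was run. Within libraries, cells were thinned to 2000 UMIs. Genes were named by list membership, or as the 5 highest and 5 lowest of a ranking. Some genes that these rules name are not reported here. The functions were tested on simulated data. TMM factors (edgeR 4.0.16) served as an alternative scaling. Python 3.11.15, numpy 2.4.6, scipy 1.17.1, pandas 2.3.3 and R 4.3.3 were used.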

Additional observations from a re-analysis of the deposited data

Results flagged for a closer look

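The difference between IL-15 and IL-2 in Il7r had opposite signs at the 2 ends of the culture. On day 3 the log2 difference was -0.24 at 5 IU/mL and -1.17 at 50 IU/mL, and on day 10 it was 2.74 and 2.02. The difference between the days was not tested, since each condition has 1 library.

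The difference between IL-2 and no cytokine changed sign from day 3, where it was 0.18 at 5 IU/mL and 0.74 at 50 IU/mL, to day 5, where it was -0.32 and -2.13. The 2 doses share the library without cytokine of their day, and this difference was not tested either.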

How the results depend on the processing

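The labels give no replicate numbers that could serve as a block. The libraries were matched by day and dose instead, and a test over these matched pairs was not run. Of 109 values recomputed for 13 results, 63 stayed within the counting interval of the reported value and 46 moved further. A change of sign was counted only where Il7r was called, and 0 were found. Those results were IL-2v minus IL-2, the dose step of IL-15 and the steps without cytokine. The cause of these shifts was not tested. On the log2 scale, the IL-2v minus IL-2 median (reported -2.01) was -1.81 in non-cycling cells, -1.42 with a pseudocount of 10 CPM, and -2.47, -1.70 and -1.30 without day 3, 5 and 10. IL-15 minus IL-2 (-0.04) was 0.050 as the mean of single-cell CPM and 0.02 with totals free of ribosomal protein and mitochondrial genes, both a change of sign in a value near 0,, and 1.09, 0.89 and -0.40 without day 3, 5 and 10. IL-2v minus IL-15 (-1.87) was -1.74 in non-cycling cells and also with a pseudocount of 10 CPM, -2.09 with TMM scaling, -2.03 with totals free of ribosomal protein and mitochondrial genes, and -3.32, -2.64 and -1.18 without each day. The dose step of IL-2 (-1.80) was -1.68 in non-cycling cells, -2.00 with TMM, -1.96 with those totals, -1.88 as single-cell means, and -2.21, -1.03 and -0.62 without each day. That of IL-2v (-0.89) was -1.07 with TMM, -1.01 with those totals, and -1.88, -1.23 and -0.24 without each day. That of IL-15 (-1.09) was -1.18 without cells above 2 times the median UMIs, -1.23 with TMM, -1.15 with those totals, and -2.22, -1.85 and -0.73 without each day, the last of which ends its call. Day 10 minus day 3 (-0.86) was -0.71 with TMM, -0.68 as single-cell means and -0.73 with a pseudocount of 10 CPM. Day 3 without cytokine minus naive (-1.69) was -1.39 in non-cycling cells, -1.76 with those totals, -1.61 as single-cell means and -1.63 with a pseudocount of 10 CPM. Day 5 minus day 3 without cytokine (2.34) was 2.42 at no more than 5% mitochondrial UMIs, 2.08 in non-cycling cells, 2.45 with TMM and 2.27 with a pseudocount of 10 CPM. The Il2ra relation (median log2 ratio 0.16) was 0.39 without thinning. With no expression filter the numbers of genes called, against those reported, were 105 and 77 for IL-2v minus IL-2, 240 and 125 for IL-15 minus IL-2, 329 and 178 for IL-2v minus IL-15, 851 and 411, 423 and 178, and 135 and 58 for the dose steps of IL-2, IL-2v and IL-15, 1146 and 529 for day 10 minus day 3, and 2621 and 1197, and 1663 and 757 for the steps without cytokine. Under 7 settings chosen after seeing the data, the highest and lowest library stayed in place and their ratio was 322 to 391.8, while up to 6 libraries changed rank, by at most 3 places. TMM moved the median of all genes by over 0.1 in 3 comparisons: from 0.10 to -0.02 for the dose step of IL-2v, from -0.17 to 0.06 for day 10 minus day 3, and from -0.00 to 0.11 for day 5 minus day 3 without cytokine. The lowest library had 77 Il7r UMIs, which limits the precision of its values.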
